A study of Mus musculus with 6 samples.

Results

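Interleukin 6 (Il6), leukemia inhibitory factor (Lif) and oncostatin M (Osm), 3 cytokine genes of the interleukin 6 family, and Socs3, the feedback inhibitor gene of their pathway, were followed in mouse fat by RNA sequencing. All 4 were found by gene name, once each, among the 12163 genes of the deposited table. Fat was taken 7 days after grafting (3 libraries) and before grafting (3 libraries), all from mice of the inbred strain C57BL/6 with wild-type genotype, and the submitters call the libraries of a group biological replicates. The depot, the graft site, the host and the age and sex of the mice are not given in the labels used here, nor is any pooling of animals. Levels are normalized counts, that is, reads of a gene after division by the size factor of its library, and fold changes are grafts over fat before grafting.

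The cytokines of this family signal through receptor complexes that share the subunit gp130, the product of Il6st. Interleukin 6 binds its own receptor before it joins gp130, whereas leukemia inhibitory factor and oncostatin M bring gp130 together with the products of Lifr and Osmr. The complexes activate JAK kinases and the transcription factor STAT3. Socs3 is itself a STAT3 target, and its protein binds gp130 and JAK kinases and shuts the signal down. In adipose tissue, macrophages, stromal cells and adipocytes are known sources of interleukin 6, and myeloid cells are known sources of oncostatin M.

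Il6 (ENSMUSG00000025746) lies on chromosome 5 (30013114 to 30019981, plus strand, GRCm38), and the other 3 lie on chromosome 11. Osm (ENSMUSG00000058755, 4236420 to 4241026) and Lif (ENSMUSG00000034394, 4257557 to 4272514) are neighbours on the plus strand, 16530 bases apart, and Socs3 (ENSMUSG00000053113, 117966079 to 117970047) is on the minus strand. None of the 4 overlaps another gene of the GENCODE M21 annotation. The stretches before the RefSeq transcription start are printed because the genes moved in the same direction and their family signals through a DNA-binding factor. They were available in RefSeq (GRCm38.p6) for 3 of the 4 genes, 250 bases long, and are cut where an annotated exon of the gene begins, with capitals marking matches to the motifs named after them.
Il6, chr5:30012864-30013113, plus strand: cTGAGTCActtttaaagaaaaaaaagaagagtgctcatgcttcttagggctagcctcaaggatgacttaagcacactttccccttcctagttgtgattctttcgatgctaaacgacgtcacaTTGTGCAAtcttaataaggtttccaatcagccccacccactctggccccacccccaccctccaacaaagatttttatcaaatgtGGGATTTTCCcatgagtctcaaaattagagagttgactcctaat
Lif, chr11:4257318-4257556, plus strand: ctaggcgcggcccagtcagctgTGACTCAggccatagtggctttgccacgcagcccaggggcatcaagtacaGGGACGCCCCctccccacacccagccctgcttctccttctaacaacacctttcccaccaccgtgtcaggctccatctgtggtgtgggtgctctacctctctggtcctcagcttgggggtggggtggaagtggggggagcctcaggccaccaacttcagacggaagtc
Socs3, chr11:117969452-117969616, minus strand: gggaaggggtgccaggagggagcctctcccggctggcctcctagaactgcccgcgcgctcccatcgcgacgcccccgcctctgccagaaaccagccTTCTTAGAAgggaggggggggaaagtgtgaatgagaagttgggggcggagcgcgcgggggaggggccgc
Both strands of the printed stretches were searched for the STAT motif TTCNNNGAA, the AP-1 motif TGANTCA, the C/EBP motif TTGNNCAA and the NF-kB consensus. The NF-kB consensus was taken as GGG, then A or G, any base, any base, C or T, C or T, and CC. No match overlapped another. Il6 held 1 AP-1, 1 C/EBP and 1 NF-kB match, Lif held 1 AP-1 and 1 NF-kB match, and Socs3 held 1 STAT match. Of all 32851 RefSeq stretches of 250 bases, 7.02% held the STAT motif, 6.75% the AP-1 motif, 5.65% the C/EBP motif and 7.25% the NF-kB consensus. The searched stretches of Lif and Socs3 were shorter, at 239 and 165 bases, so these shares are not for stretches of their length. These matches describe the letters only. The Socs3 stretch lies 266 to 430 bases before the start of the coding transcript in GENCODE, and inside the gene as printed above, in an intron of a longer GENCODE transcript without a coding sequence.

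All 4 genes rose in grafts, and the 3 grafts lay above the 3 libraries before grafting for each of them. The modelled rises were 216-fold for Il6, 54.6-fold for Socs3, 14.8-fold for Osm and 7.12-fold for Lif. The test was limma on log2(normalized count + 1), with p-values adjusted over all annotated genes and 0.05 as the threshold. By that test 41.3% of the 10854 tested genes were higher in grafts, and 49.6% had all grafts above all libraries before grafting. The table had been selected for differing genes, so these shares are high and 4 of 4 is a description of the genes, not a contrast with the table. For each of the 4, an exact two-sided permutation test over the libraries gave p = 0.1, the smallest that 3 against 3 allows.

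The libraries held 13027776 to 15924559 reads in the listed genes. All 10 adipocyte markers fell, with a summed level of 6424 to 25846 normalized counts in grafts and 324086 to 486496 before grafting, where none was at 0. All 10 neutrophil markers rose, with a summed level of 63092 to 100098 normalized counts in grafts and 730.4 to 891 before grafting, where Ly6g, Fpr1 and Trem1 were at 0 in at least 1 library. Of 9 macrophage markers 8 rose, with summed levels of 190122 to 200211 in grafts and 22135 to 24941 before grafting. Of 8 mesenchymal progenitor markers 4 rose and 2 fell (21299 to 27325 in grafts, 19269 to 22253 before grafting). Of 10 endothelial markers 5 were in the table, of which 2 fell and 0 rose. Their summed level was 4309 to 5719 in grafts and 8497 to 10240 before grafting, and their log2 fold changes were all negative, at -1.40 to -0.34. Among all tested genes 41.3% were higher and 39.2% lower. The counts of mesenchymal progenitor markers, and of endothelial markers that fell, thus do not set them apart. In bulk tissue, a change in the number of cells of a type and a change in RNA per cell cannot be told apart. The part of these cell types in the rises of Il6, Lif, Osm and Socs3 was not tested.

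Il6, the cytokine that drives the hepatic acute phase response, was close to absent before grafting. It had 484, 871 and 371 normalized counts in the grafts, against 2.96, 0 and 2.95 before grafting. By the steps of the values, 1755 reads in all lay behind the values in the grafts and 6 reads behind those before grafting, so the lower level is poorly measured. The means were 575 ± 262 in grafts and 1.97 ± 1.71 before grafting (SD, n = 3 each). The log2 fold change was 7.75 (SE 0.59, 95% interval 6.40 to 9.11, limma adjusted p = 4.86e-05). Because the lower level is near 0, the size of this estimate depends on the value added before taking logs: it was 8.22 with 0.5 added and 6.32 with 5 added. It was 7.09 without replicate 2 before grafting, the library with 0 reads. The ratio of reads, which needs no added value, was 291 with an exact 95% interval of 133 to 793 that covers counting error only.

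Socs3, which encodes the feedback inhibitor, was the most abundant of the 4 per kilobase in both groups. The grafts held 9559, 12555 and 11449 normalized counts, against 325, 151 and 169 before grafting. The grafts lay close together, and replicate 1 before grafting was the highest of its group. The means were 11188 ± 1515 in grafts and 215 ± 95.9 before grafting (SD, n = 3 each). The log2 fold change was 5.77 (SE 0.27, 95% interval 5.15 to 6.39, limma adjusted p = 5.37e-06), the smallest adjusted p of the 4.

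Osm, a cytokine of activated myeloid cells, had 373, 890.3 and 427 normalized counts in the grafts, against 41.4, 22.3 and 43.3 before grafting. The lowest graft was thus well above the highest library before grafting. The means were 563 ± 284 in grafts and 35.7 ± 11.6 before grafting (SD, n = 3 each), with a log2 fold change of 3.89 (SE 0.38, limma adjusted p = 0.000189).

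Lif, named for its effect on leukemic myeloid cells and best known for keeping mouse stem cells undifferentiated, rose least. It had 279, 558 and 247 normalized counts in the grafts, against 35.5, 51.7 and 55.1 before grafting. The means were 361 ± 171 in grafts and 47.4 ± 10.5 before grafting (SD, n = 3 each), with a log2 fold change of 2.83 (SE 0.33, limma adjusted p = 0.000495). The 95% intervals of the log2 fold change were 2.07 to 3.60 for Lif and 3.01 to 4.77 for Osm, so the intervals of these neighbouring genes overlapped, and the difference between them was not tested.

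**Figure D1:**
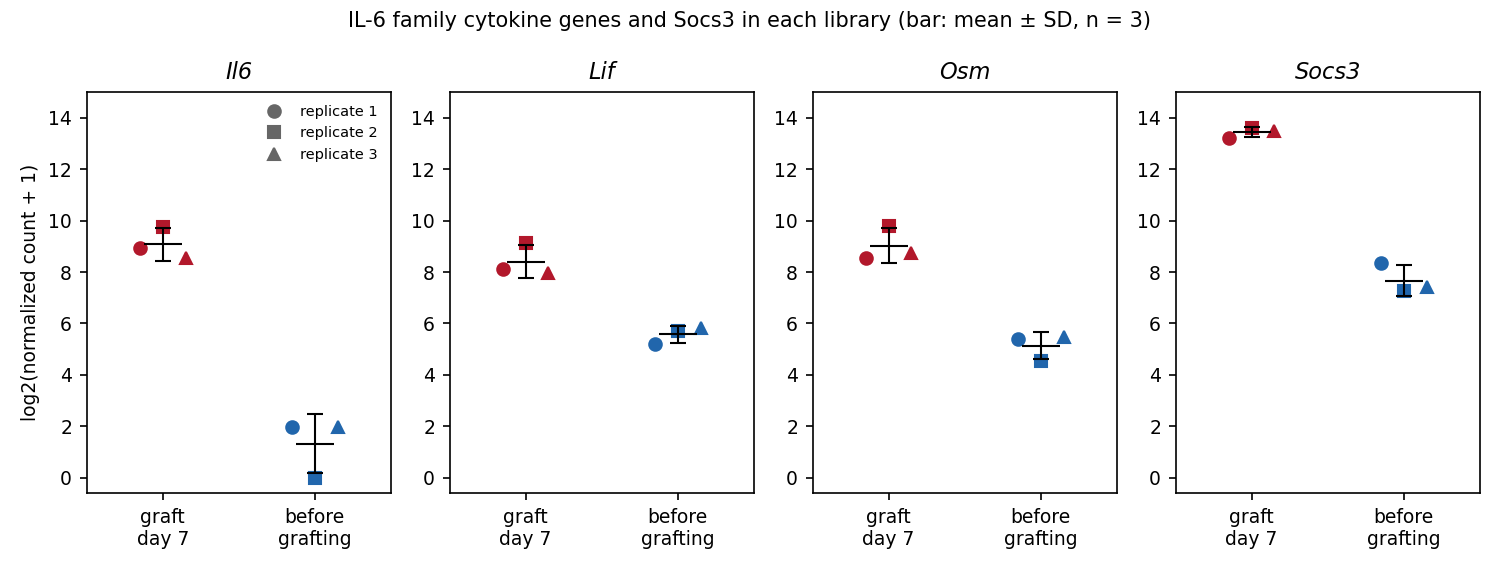
Level of each gene in each library as log2(normalized count + 1), with graft day 7 left and before grafting right in each panel, 1 symbol per library and the mean ± SD of 3 libraries. For each of the 4 genes every graft lies above every library before grafting, with Il6 at 0 in replicate 2 before grafting and Socs3 nearly level among the grafts at 9559 to 12555 normalized counts.

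Among the 10854 tested genes ordered from the largest rise down, Il6 stood at place 42, Socs3 at 141, Osm at 404 and Lif at 763. The median log2 fold change of all tested genes was 0.28. Of the genes called higher, 681 had a log2 fold change of at least 3, which includes Il6, Socs3 and Osm but not Lif.

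**Figure D2:**
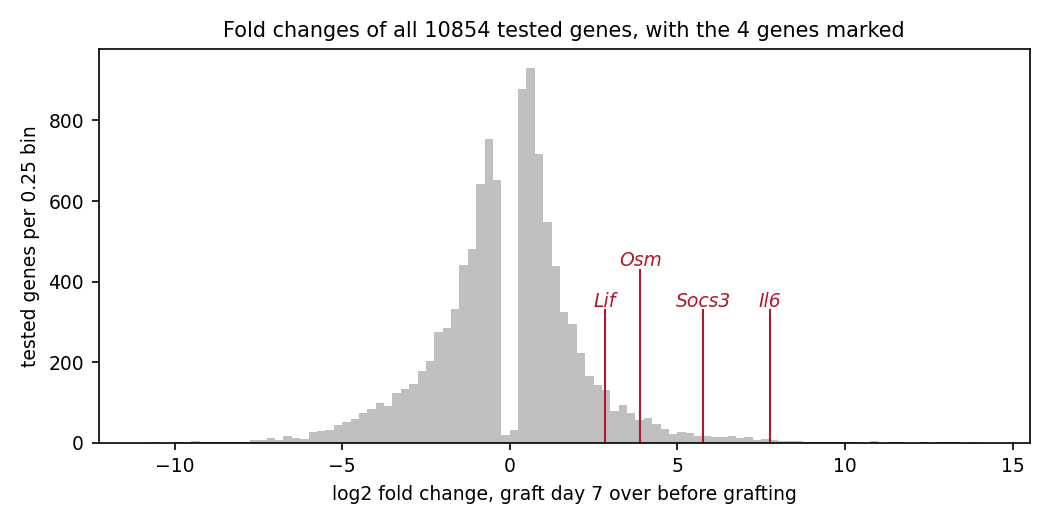
Number of tested genes (vertical axis) by log2 fold change, graft day 7 over before grafting (horizontal axis), in bins of 0.25, with the 4 genes marked by vertical lines of arbitrary height. The gap around 0 shows that the table was selected for differing genes, and Il6, at 7.75, and Socs3, at 5.77, lie in the far right tail.

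Set per kilobase of gene length, so that genes can be compared, Socs3 was highest in grafts, with 3870 ± 524 normalized counts per kilobase (SD, n = 3). Osm followed with 248 ± 125 and Il6 with 237 ± 108 normalized counts per kilobase, and these neighbours did not differ beyond their spread: Il6 was above Osm in graft replicate 1 and below it in replicates 2 and 3. Lif was lowest, with 64.2, 128 and 56.9 normalized counts per kilobase in the 3 grafts, below Il6 and Osm in every graft. Before grafting the order was Socs3 at 74.4 ± 33.2, Osm at 15.7 ± 5.1, Lif at 10.9 ± 2.4 and Il6 at 0.81 ± 0.70 normalized counts per kilobase. There Osm was above Lif in replicates 1 and 3 and below it in replicate 2, so those neighbours did not differ beyond their spread. Il6 was thus the lowest of the 4 in every library before grafting, and above Lif in every graft.

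Graft replicate 2 held the highest level of each of the 4 genes. Its normalized counts also had the largest total of the grafts, at 1.54e+07 against 1.43e+07 and 1.46e+07 in replicates 1 and 3. The share of all tested genes that peaked in graft replicate 2 was not counted, so this order is not shown to be particular to the 4 genes. The level there was 2.04 times the mean of the other grafts for Il6, 2.12 times for Lif and 2.23 times for Osm, but 1.20 times for Socs3. Without graft replicate 2 the log2 fold changes were 7.41 for Il6, 2.47 for Lif, 3.51 for Osm and 5.68 for Socs3, and all 4 stayed past the threshold. The T cell markers (10 of 10 listed) and the mesenchymal progenitor markers (8 of 10 listed) also had their highest summed level among the grafts in that library, at 918 and 27325 normalized counts. All 10 T cell markers and 7 of the 8 mesenchymal progenitor markers peaked there among the grafts. The 9 macrophage markers had no common order: 6 peaked in graft replicate 1, 2 in replicate 2 (Csf1r and Cd14) and Lyz2, which makes up most of their sum, in replicate 3. Without Lyz2 the other 8 summed to 60645, 62705 and 54241 normalized counts in graft replicates 1, 2 and 3. The neutrophil markers summed to 63092, 71099 and 100098 normalized counts in graft replicates 1, 2 and 3, so their sum was highest in replicate 3. Mmp9 and Trem1 peaked in replicate 2 and the other neutrophil markers in replicate 3. The adipocyte markers (25846, 9258.5 and 6424) and the endothelial markers (5719, 4458 and 4309) had their highest sums in replicate 1. The part of these markers in the levels of the 4 genes was not tested.

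Of 8 other cytokines and ligand subunits of the family, 4 were in the deposited table, of which 2 rose and 1 fell. That is 3 of 4 called, close to the 80.4% called in either direction among all tested genes. Il11, a family cytokine of stromal cells, had 37.2, 99.9 and 29.7 normalized counts in the grafts, against 5.92, 3.04 and 0.98 before grafting (log2 fold change 3.69, SE 0.61, limma adjusted p = 0.00341). Only 10 reads in all lay behind the values of Il11 before grafting, and its log2 fold change was 3.91 with 0.5 added before taking logs, 2.73 with 5 added and 3.06 with scaling on ribosomal protein genes. Like Il6, Lif and Osm, it was highest in graft replicate 2, at 2.99 times the mean of the other grafts.

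Ebi3, a subunit of interleukin 27, rose to 323 ± 61.4 normalized counts in grafts, against 68.2 ± 5.6 before grafting (SD, n = 3 each). Il27, the partner subunit, did not pass the threshold, with 24.3 ± 13.3 normalized counts in grafts and 6.65 ± 4.06 before grafting (limma adjusted p = 0.127). It passed only when the adjustment covered the tested genes alone (limma adjusted p = 0.0248), which were selected for difference. Ctf1, which encodes cardiotrophin 1, was the member that fell, to 19.7 ± 5.8 normalized counts in grafts, against 69.1 ± 20.9 before grafting (log2 fold change -1.76, SE 0.35, limma adjusted p = 0.00848). The annotation of Ctf1 overlaps that of its paralog Ctf2, so its level is uncertain. The median log2 fold change of the 4 genes was 1.99, against 0.28 over all tested genes. Cntf, Clcf1, Ctf2 and Il31 were not analysed here.

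Of 8 receptor genes on the list, 6 were in the table, of which 2 rose and 3 fell. Among all tested genes 41.3% were higher and 39.2% lower, so these counts do not set the receptors apart. Their median log2 fold change was -0.50. Osmr, the signalling subunit for oncostatin M, had 2374, 2964 and 2754 normalized counts in the grafts, against 1225, 1235 and 1247 before grafting. Its log2 fold change was 1.12 (SE 0.10, limma adjusted p = 0.000131). Lifr, the subunit for leukemia inhibitory factor, had 1131, 1327 and 1249 normalized counts in the grafts, against 2726, 2816 and 2906 before grafting (log2 fold change -1.19, SE 0.09, limma adjusted p = 5.79e-05). The ligand genes Osm and Lif thus both rose, while of their receptor subunits Osmr rose and Lifr fell. The groups did not overlap for either, as for 97.6% of tested genes.

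Il6st, which encodes the shared subunit gp130, had 7302 ± 478 normalized counts in grafts and 8727 ± 71 before grafting (SD, n = 3 each). Its log2 fold change was -0.26 (95% interval -0.47 to -0.05), which missed the threshold after adjustment (limma adjusted p = 0.121), although all grafts were below all libraries before grafting, as for 48% of tested genes. It was called lower under each of the 4 other scalings, at -0.37 to -1.01. The same call came with adjustment over the tested genes alone (limma adjusted p = 0.0237). Il11ra1, the receptor for interleukin 11, rose to 2018 ± 291 normalized counts in grafts, against 1215 ± 117 before grafting, and the gene overlaps 6 others in the annotation. Scaling on ribosomal protein genes turned its log2 fold change of 0.73 into -0.022.

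Il27ra, a receptor of T cells and other lymphocytes, fell most, to 88.6 ± 25.2 normalized counts in grafts, against 632 ± 157 before grafting (log2 fold change -2.83, SE 0.26, limma adjusted p = 0.000136). All 10 T cell markers fell too, in a table where 39.2% of tested genes were lower. Their summed level was 396 to 918 normalized counts in grafts and 4771 to 8095 before grafting, and none of them was at 0. Their part in the fall of Il27ra was not tested. Cntfr, the receptor for ciliary neurotrophic factor, fell to 99.8 ± 8.4 normalized counts in grafts, against 168 ± 18 before grafting (limma adjusted p = 0.0219). Its call was lost when any 1 of the libraries before grafting or graft replicate 2 was left out, where the adjusted p was 0.0523 to 0.0974. Il6ra, the receptor chain that binds interleukin 6 itself, and Il31ra were not analysed here.

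Downstream of the receptors, Stat3 and Jak2 rose. Of 8 genes of JAK kinases, STAT factors and the phosphatase Ptpn11, 4 were in the table, of which 2 rose and 1 fell (median log2 fold change 0.44), again 3 of 4 called where 80.4% of all tested genes were. Stat3 had 6035, 6554 and 6445 normalized counts in the grafts, against 3158, 2927 and 2750.2 before grafting (log2 fold change 1.11, SE 0.09, limma adjusted p = 7.94e-05). Jak2, a kinase used by gp130, rose to 4815 ± 335 normalized counts in grafts, against 1540 ± 186 before grafting. Stat5a, a factor of growth hormone and prolactin signalling, fell to 683 ± 64 normalized counts in grafts, against 1098 ± 11 before grafting. Stat3 and Stat5a run towards each other on chromosome 11 and overlap at their ends, so a few reads may be shared. With scaling on ribosomal protein genes, the rise of Stat3 was 0.36 and was not called, and that of Osmr was 0.37 and was not called.

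The other inhibitor genes listed here changed less than Socs3. Of 13 other SOCS genes and JAK-STAT inhibitors, 9 were in the table, of which 3 rose and 3 fell. That is 6 of 9 called, where 80.4% of all tested genes were called in either direction. Their log2 fold changes were -2.31 to 1.34 (median 0.29), against 5.77 for Socs3. Socs1, the SOCS gene best known from interferon signalling, rose to 276 ± 104 normalized counts in grafts, against 109 ± 46 before grafting (log2 fold change 1.34, SE 0.35, limma adjusted p = 0.0333). Ptpn2 and Ptpn6, phosphatase genes, rose by log2 fold changes of 1.21 and 0.72, of which that of Ptpn6 turned to -0.031 with scaling on ribosomal protein genes. Under that scaling Socs1 and Ptpn2, at 0.60 and 0.46, were not called. The call of Ptpn6 was lost under each of the other 3 scalings too (adjusted p = 0.0687 to 0.158, limma), and that of Socs1 with equal totals and equal upper quartiles (adjusted p = 0.0531 and 0.0684, limma). Of the SOCS genes that fell, Socs2, a feedback inhibitor of growth hormone signalling, was at 286 ± 59 normalized counts in grafts and 758 ± 70 before grafting, and Socs7 had a log2 fold change of -0.51.

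Cish, a target of STAT5, had 86.4, 146 and 173 normalized counts in the grafts, against 1639, 336 and 492 before grafting (log2 fold change -2.31, SE 0.56, limma adjusted p = 0.0256). Replicate 1 before grafting stood far above the others of its group, and without it the log2 fold change was -1.64. The same library had the highest T cell markers and the highest Socs3 before grafting, and the part of those cells was not tested. The calls of Cish, Socs1 and Ptpn6 were each lost in 3 or 4 of the 6 fits that left out 1 library, with adjusted p-values up to 0.0844, 0.144 and 0.106. For Cish these were the fits without replicate 3 before grafting and without graft replicates 1 and 2. For Socs1 they were the fits without replicates 2 and 3 before grafting and without graft replicates 2 and 3. For Ptpn6 they were the fits without replicate 3 before grafting and without each graft. Without replicate 3 before grafting, and likewise without graft replicate 2, 3 of the 9 inhibitor genes were called.

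**Figure D3:**
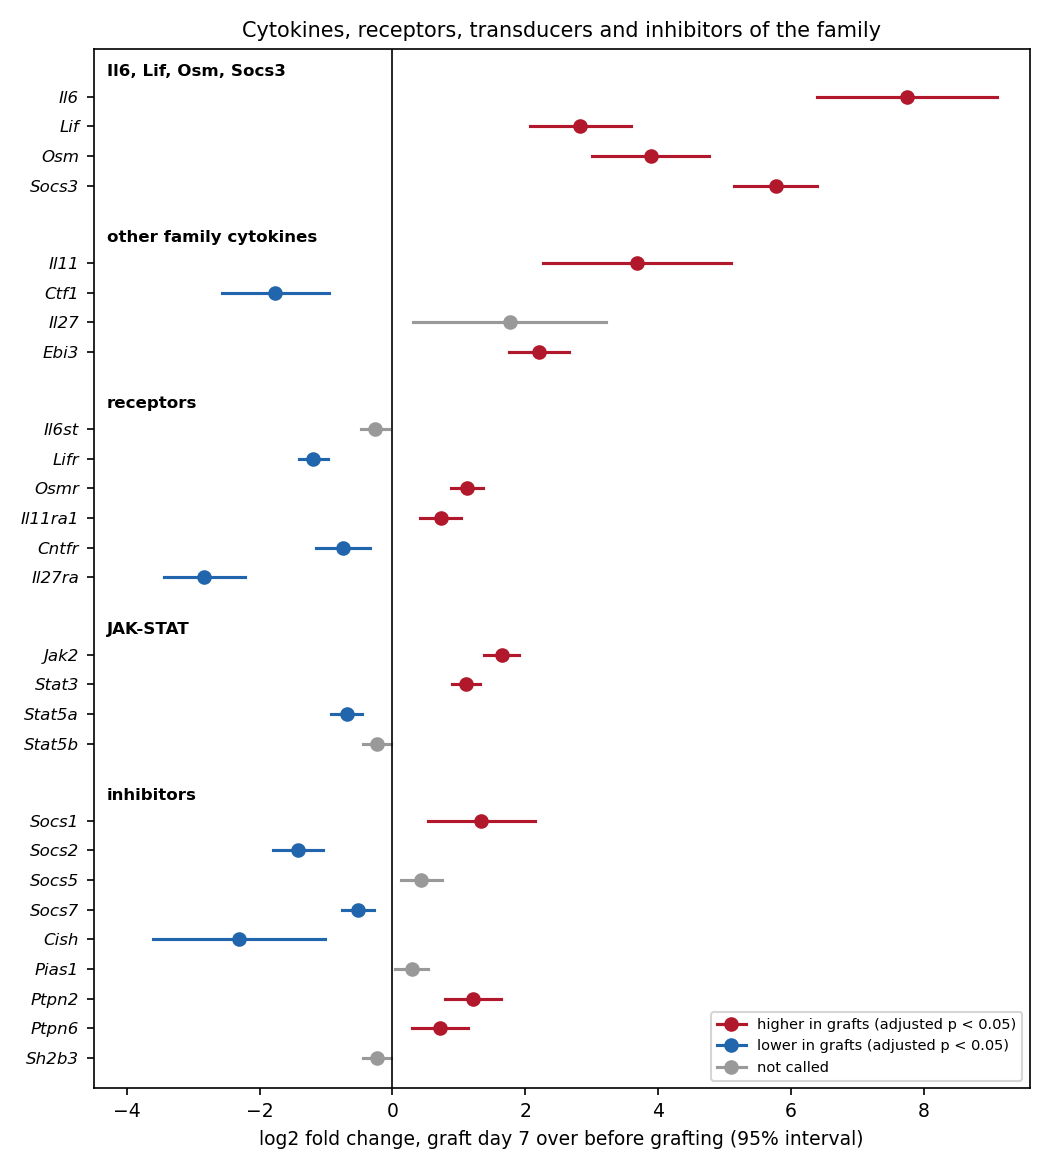
Log2 fold change with its 95% interval (horizontal axis, graft day 7 over before grafting) for genes of the pathway in the deposited table, grouped by role. The 4 genes at the top lie between 2.83 and 7.75, the receptors between -2.83 and 1.12, and the inhibitors other than Socs3 between -2.31 and 1.34.

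Of 28 genes known to respond to STAT3 or to cytokines of the family, 27 were in the table, 26 rose and none fell, in a table where 41.3% of tested genes were higher. Their median log2 fold change was 2.83, against 0.28 over all tested genes. Many of these genes also respond to other inflammatory signals, and the list was put together with earlier results of these data known. The called genes with the largest changes were Saa3, Il1rn, Timp1 and Lcn2.

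Saa3, an acute phase gene that mouse fat and macrophages express, had 119264 ± 26257 normalized counts in grafts and 7.63 ± 4.46 before grafting (SD, n = 3 each). Timp1, a metalloproteinase inhibitor and a known target of oncostatin M, had 8551, 9494 and 6088 normalized counts in the grafts, against 15.8, 19.2 and 15.7 before grafting. Its log2 fold change was 8.79 (SE 0.18, limma adjusted p = 3.42e-07). Il1rn, the interleukin 1 receptor antagonist, and Lcn2, an iron-sequestering protein of neutrophils and stressed tissue, had log2 fold changes of 9.66 (SE 0.36) and 8.61 (SE 0.30). All 10 neutrophil markers and 8 of 9 macrophage markers rose in the same libraries, where 41.3% of tested genes were higher. The part of these markers in the rises of Saa3, Timp1, Il1rn and Lcn2 was not tested. Pim3, a kinase gene singled out here after its values were seen, was the member that was not called, with a log2 fold change of -0.57 (limma adjusted p = 0.27) and overlapping groups. Leaving out 1 library at a time left 22 to 26 of the 27 called higher and 0 lower, and scaling on ribosomal protein genes gave 21 higher and 1 lower.

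**Figure D4:**
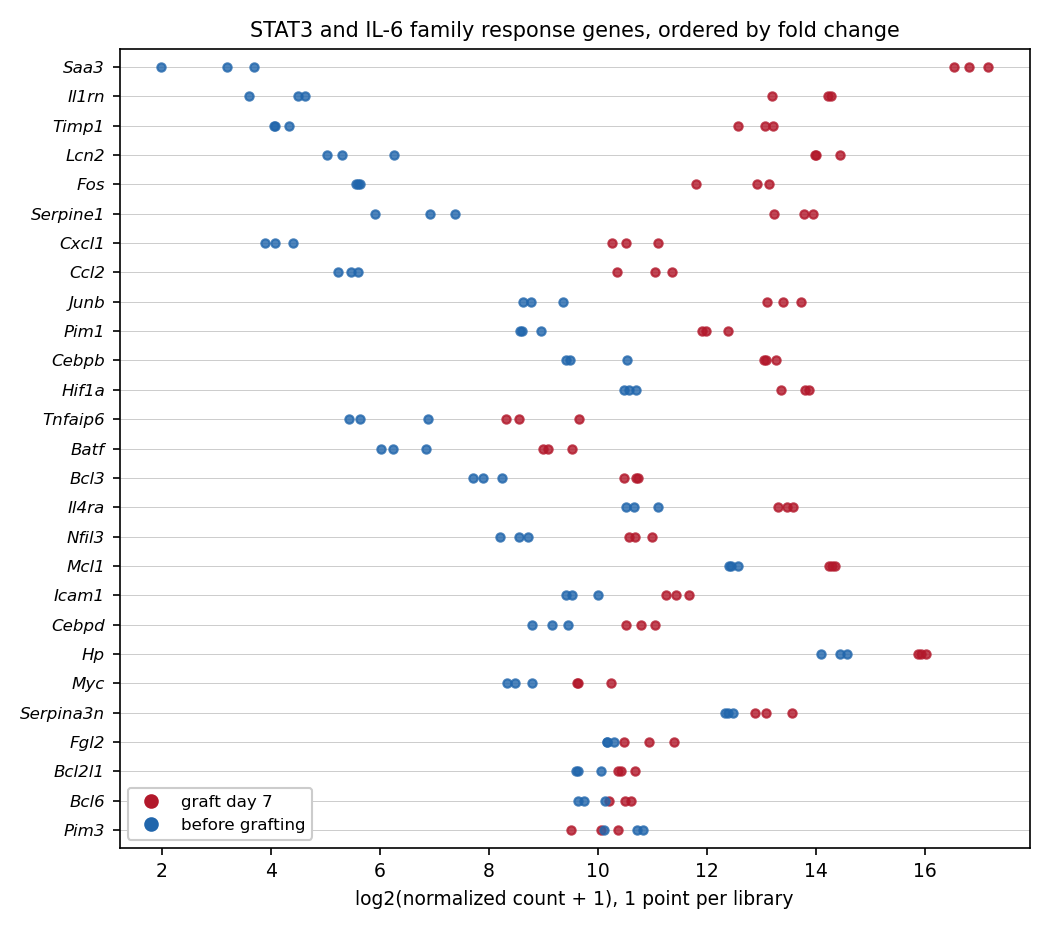
Level of each of 27 STAT3 and family response genes as log2(normalized count + 1) on the horizontal axis, 1 point per library, with grafts in red and fat before grafting in blue, ordered by fold change from the top. In 26 genes the grafts lie above the libraries before grafting, and in Pim3 at the bottom the groups overlap.

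The genes whose profile over the 6 libraries was most like that of each of the 4 were found by the root mean square difference of log2(normalized count + 1), after each gene was centred on its own mean. Nearest to Il6 was Ptx3, the gene of the soluble pattern recognition molecule pentraxin 3, at 0.38 log2 units. Ptx3 had 1763, 2263 and 1568 normalized counts in the grafts, against 15.8, 4.05 and 8.85 before grafting, so it was highest among the grafts and lowest before grafting in the same libraries as Il6. Slfn4 and Arg2 followed at 0.55 and 0.64. Nearest to Lif were Col8a1, a collagen gene, at 0.19, Jun, a subunit of AP-1, at 0.24 and Zswim4 at 0.30. Nearest to Osm were Rgs8 at 0.24, Plek, which encodes pleckstrin of platelets and leukocytes, at 0.26 and Wnt16 at 0.27, of which Rgs8 and Wnt16 had at most 1.97 normalized counts before grafting. Nearest to Socs3 were Bdkrb1, the inducible bradykinin receptor, at 0.23, Egln3, a hypoxia-induced prolyl hydroxylase, at 0.25 and Adam8, a metalloproteinase of leukocytes, at 0.27. Among the 4 themselves, Lif and Osm were closest, at 0.68, and Il6 and Lif were farthest apart, at 2.58. With 2 groups this measure mostly follows the size of the fold change, so it adds little to the fold changes above. Il6 and Lif, with the largest and smallest rise of the 4, had a like order among the grafts. Both were highest in graft replicate 2, at 2.04 and 2.12 times the mean of the other grafts.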

How the data were processed

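Fat RNA was sequenced in 6 libraries. The deposited table holds a signal per gene, called normalized counts here. Each library's values were all whole multiples (100%, tolerance 0.01 reads) of a single step, so they are taken for the authors' read counts after size-factor scaling. In graft replicates 1 and 3 the step (1.00 and 0.989) is so near 1 that whole reads are less surely recovered. Read totals serve only to show depth and for counting intervals. The 6 per-sample tables repeat it. Deposited gene lengths (unit: other) were used for levels per kilobase. The submitters' processing notes name Bowtie 0.12.2 and HISAT2 2.0.5 with mm8 and mm9, yet 12011 of 12151 matched genes lie within 1000 bp of GENCODE M21 (GRCm38). How reads were counted, by strand or not, is not stated, and 10 of the 27 named genes of the pathway lists overlap another gene and may share reads.

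The table was selected for difference: an unadjusted p under 0.05 was found for 10772 of 10854 tested genes. Full depth is therefore unknown, and the variance prior rests on selected genes. Here limma 3.58.1 (R 4.3.3) was run on log2(value + 1) with group as the term, mean trend and robust moderation, two-sided, on genes reaching 10 in at least 3 libraries. Benjamini-Hochberg adjustment covered 55462 annotated genes, unlisted ones at the highest p. The script was tested on simulated data in which most genes did not differ. That is unlike this table, so the test does not show how the selection of genes affects the calls. Python 3.11.15, pandas 2.3.3, scipy 1.17.1 and matplotlib 3.10.9 made tables and figures. Named genes were the 4 genes, all listed family cytokines and receptors, up to 4 called genes with the largest log2 fold change per direction in each other pathway list, and the 3 nearest profiles per gene, without predicted genes. A result the rule would name is not reported here. Genes and lists were chosen with earlier results of these data known.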

Additional observations from a re-analysis of the deposited data

How the results depend on the processing

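Il6, Lif, Osm and Socs3 stayed higher in grafts and past the threshold under all 16 alternatives run for each. The log2 fold changes ranged from 6.32 to 8.22 for Il6, 2.09 to 3.06 for Lif, 3.15 to 4.13 for Osm and 5.02 to 6.11 for Socs3, with adjusted p-values of at most 0.00116, 0.00344, 0.00322 and 0.000229. The lowest values of Lif, Osm and Socs3 came from scaling on 74 ribosomal protein genes, which moved the median log2 fold change of all tested genes by -0.75 (the other scalings moved it by -0.12 to -0.21). Under that scaling 1929 genes were called higher and 5461 lower (26.1% of calls higher), against 4479 and 4251 (51.3%) with the deposited scaling, and Il11ra1 and Ptpn6 turned to -0.022 and -0.031. With equal upper quartiles 40.8% of calls were higher. Leaving out 1 library at a time gave 3752 to 4130 genes called higher and 3325 to 4014 lower. Of the 27 named genes of the pathway, the 4 genes included, 23 kept their call in all 6 fits. The genes named for their nearest profiles were not checked in this way. Called inhibitor genes numbered 3 (1 higher, 2 lower) without trend and robust moderation, 3 with the replicate block, and 3 to 6 when 1 library was left out, against 6 in the reported fit. The libraries' numbers are not stated to mark pairs, and same-numbered libraries deviated from their group means with correlations of -0.16, -0.13 and 0.041. The replicate block left 3912 genes higher and 3644 lower, and 25 response genes higher and 1 lower. It ended the calls of Cntfr (adjusted p = 0.0638), Socs1 (0.0994), Ptpn6 (0.0527) and Cish (0.0632). The edgeR and DESeq2 alternatives were not run, since whole reads were less surely recovered for graft replicates 1 and 3. With 6 reads before grafting, depth limits the lower level of Il6.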
